A study of Mus musculus with 2 samples.

Results

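Pi16 Cilp Cd248 fibroblast nuclei are cardiac nuclei with fibroblast transcripts in which the matrix genes Cilp, Myoc, Cd248, Pi16, Islr, Clec3b, Mfap4 and Mfap5 (the Cilp set) together outweighed Rgs17, Fbn2, Eya2, Inmt, Pcdh9, Slit2 and Col6a6 (the Rgs17 set). A nucleus was taken when mitochondrial transcripts made at most 20% of its unique molecular identifiers (UMIs, 1 for each captured transcript molecule) and when Pdgfra, Col1a1, Col1a2, Col3a1, Dcn, Abca8a and Bicc1 summed to at least 4 UMIs. Its Cilp set sum had to be at least 1 and larger than its Rgs17 set sum, Wif1 and Chad together had to be under 2 UMIs, and Pecam1, Flt1 and Ptprb together under 3. Of 18066 nuclei that passed the mitochondrial limit, 2832 met these conditions, 1404 of them Control and 1428 PD-1 inhibitor nuclei. The files hold 18164 nuclei in all.

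Fibroblasts of connective tissue make and remodel the extracellular matrix, the mesh of collagens, elastic fibres, proteoglycans and glycoproteins between cells. In many tissues, fibroblasts with Pi16, Cd248, Clec3b and Mfap5 lie in the adventitia, the sheath of larger vessels, whereas other fibroblasts lie between the parenchymal cells, in the heart between the cardiomyocytes. Pi16 encodes a secreted peptidase inhibitor, Cd248 the surface sialomucin endosialin, Clec3b the plasminogen-binding protein tetranectin, and Mfap4 and Mfap5 encode proteins associated with microfibrils. Cilp encodes a cartilage intermediate layer protein, Myoc the secreted protein myocilin, and Islr a membrane protein with leucine-rich repeats.

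Hearts came from male C57BL/6 mice, 8 weeks old when dosing began, and the study compared PD-1 blockade with PBS. The PD-1 inhibitor group received an anti-mouse PD-1 antibody intraperitoneally at 5 mg/kg on days 1 and 14, the Control group received PBS on the same days, and the cycle lasted 28 days. Each group is represented by 1 library, made from isolated nuclei with the GEXSCOPE single nucleus kit, and the number of hearts in a library is not given in the sources used here. With 1 library per group there is no replicate, so no test was made: all intervals below are exact 95% intervals of counting error only, and a difference between the libraries cannot be told apart from a difference between hearts or preparations.

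The nuclei held 502 to 9523 UMIs in Control (median 1154, with a median of 722 genes) and 500 to 9945 in PD-1 inhibitor nuclei (median 1228, with 744.5 genes), in sum 1981733 and 2229602 UMIs. All other nuclei had medians of 996 and 1033 UMIs. Scrublet, which scores nuclei for likely doublets, marked 6.55% and 4.13% of the chosen nuclei, and these were kept. Across both files, 48 barcode strings occur in both libraries, of which 14 chosen nuclei carry one, and 0 of these strings had the same UMI total in both.

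Its marker genes, which also belong to the rule and therefore describe the choice, were all detected. Cilp, Myoc, Cd248, Pi16, Clec3b and Mfap5 all had UMIs, and their sum was 4271 UMIs per 1000000 (CPM) in Control and 4119 in PD-1 inhibitor nuclei, against 336 and 349.8 in all other nuclei. At least 3 UMIs of these 6 genes were found in 65.0% of the nuclei in both libraries. The median nucleus had 5 UMIs of the Cilp set in both libraries, 1 and 0 of the Rgs17 set, and 20 and 25 of the fibroblast genes.

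Pi16 was the most widely detected gene of the set, with a UMI in 60.8% of the Control and 60.1% of the PD-1 inhibitor nuclei, at 1669 and 1501 CPM. Free RNA can leave UMIs of such genes in other nuclei, and Pi16 was found in 4.53% and 4.30% of macrophage nuclei (median 960 and 1014.5 UMIs) and in 13.4% and 15.2% of endothelial nuclei (median 1034 and 1019 UMIs). Here and below, both kinds were taken only with under 4 UMIs of the fibroblast genes of the rule. Nuclei with more fibroblast RNA are therefore left out of these shares. After each nucleus was thinned to 500 UMIs, the Pi16 shares were 43.4% and 41.4% in the chosen nuclei, 6.27% and 8.27% in endothelial nuclei and 2.66% and 2.26% in macrophage nuclei. Clec3b followed with 52.4% and 55.4% of the nuclei, and Mfap5 with 50.4% and 53.8%. Islr was found in 40.5% and 47.1%, Cd248 in 26.8% and 27.2%, and Mfap4 in 17.7% and 17.2%.

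Cilp and Myoc marked few of the nuclei. A Cilp UMI was found in 12.5% of the Control and 10.2% of the PD-1 inhibitor nuclei, against 0.782% and 0.753% of macrophage nuclei. Its level was 372 CPM and 233 CPM, and 74 of the 737 Control UMIs came from 1 nucleus. Myoc was found in 11.4% and 11.1% of the nuclei, at 148 and 169.5 CPM. Of the Rgs17 set, Pcdh9, a protocadherin, was still found in 37.6% and 33.1% of the nuclei, against 82.7% and 76.1% of nuclei in which the Rgs17 set was larger.

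**Figure D1:**
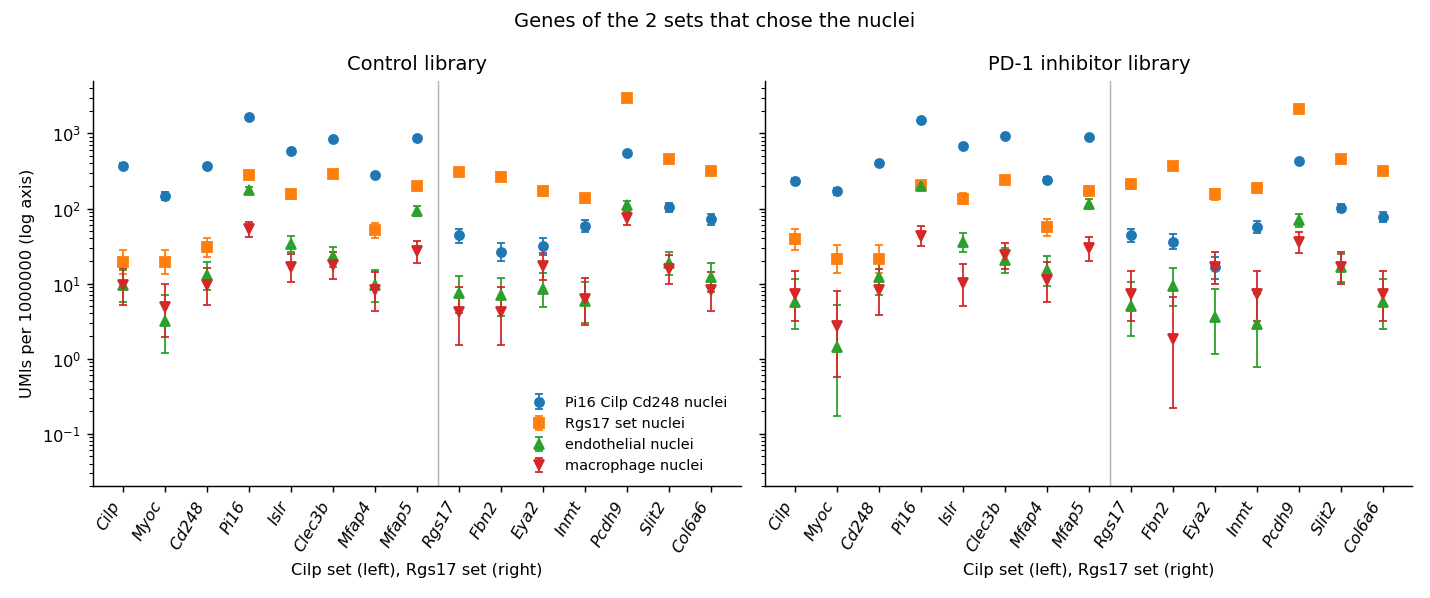
Level of each gene of the Cilp set (left of the line) and of the Rgs17 set (right) in 4 kinds of nuclei, in UMIs per 1000000 on a log axis, with the Control library on the left and the PD-1 inhibitor library on the right. Points are summed UMIs over all nuclei of a kind and bars are exact 95% Poisson intervals; Pi16 stands at 1669 and 1501 in the chosen nuclei and Pcdh9 at 548 and 431, while the chosen and Rgs17 set nuclei were picked by these same genes.

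The boundary to the other fibroblast nuclei was narrow for many nuclei. In 350 Control nuclei (24.9%) and 340 PD-1 inhibitor nuclei (23.8%), the Cilp set exceeded the Rgs17 set by a single UMI, and just outside stood 203 and 169 fibroblast nuclei with equal sums. On the fibroblast genes, 59 and 49 nuclei had exactly 4 UMIs, and 87 and 74 further nuclei met every other condition with 3 UMIs. A further 167 and 233 nuclei met all conditions but had 3 or more endothelial UMIs.

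A list of 27 genes known from fibroblasts shared among tissues, none of them in the rule, varied with the margin between the sets (universal fibroblast list). In the Control library these genes summed to 9036 CPM at a margin of 1, to 11064 CPM at 2 to 4 and to 12359 CPM at 5 or more. In the PD-1 inhibitor library the sums were 9323, 11248 and 13170 CPM. A list of interstitial fibroblast genes without rule genes also differed, with 7920, 8981 and 9774 CPM from margin 1 to 5 or more in Control and 7072, 9038 and 10070 CPM in PD-1 inhibitor nuclei, and so did the median sum of the fibroblast genes of the rule, from 13 to 27 and from 13 to 36 UMIs. On the universal list, nuclei with a larger Rgs17 set had 5753 and 6443 CPM, and those with equal sums 8539 and 8329 CPM. On the same list, fibroblast nuclei with neither set had 8851 and 10108 CPM. On the interstitial list, the nuclei with a larger Rgs17 set had 10487 and 9374 CPM. Median depth differed between these bins, at 1052.5, 1086.5 and 1311.5 UMIs from margin 1 to 5 or more in the Control library, and the part of depth in this order was not tested.

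**Figure D2:**
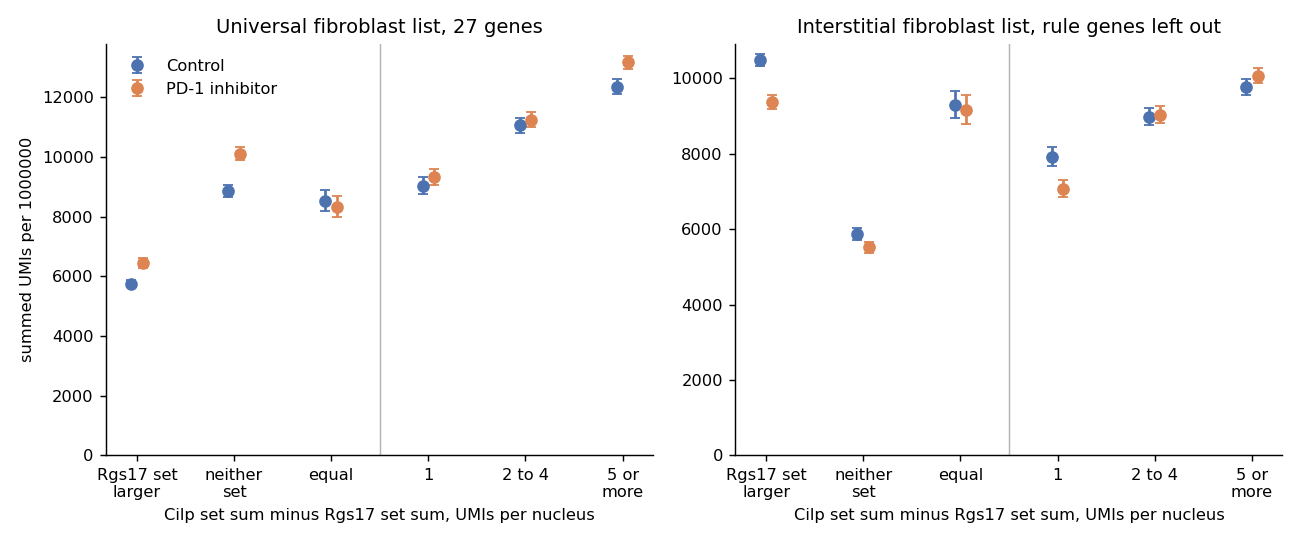
Summed level of the universal fibroblast list (left) and of a list of interstitial fibroblast genes without rule genes (right), in UMIs per 1000000, by the difference between the Cilp set and Rgs17 set sums of a nucleus; nuclei right of the line are Pi16 Cilp Cd248 nuclei. Points are sums over the nuclei of a bin, bars exact 95% Poisson intervals; the universal list runs from 5753 and 6443 where the Rgs17 set was larger to 12359 and 13170 at a margin of 5 or more.

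Some of the nuclei also carried transcripts of the mesothelium, the epithelium-like sheet that covers the heart. The mesothelial markers Msln, Upk3b, Upk1b, Wt1, Muc16 and Lrrn4 all had UMIs and summed to 1426 and 1998 CPM, against 575 and 1155 CPM in Rgs17 set nuclei and 556 and 800.1 CPM in all other nuclei. At least 3 UMIs of these genes were found in 122 Control nuclei (8.69%) and 144 PD-1 inhibitor nuclei (10.1%), which held 94.8% and 96.3% of the mesothelial UMIs. For these nuclei the fibroblast label rests on the rule alone, and values without them are given beside the results that turn on them. Other cell types were less represented than elsewhere. Endothelial markers summed to 478 and 469.6 CPM against 2469 and 2806 CPM in all other nuclei. Pecam1, Flt1 and Ptprb are among them and were bounded by the rule, so this sum is in part set by the choice. Of the markers outside the rule, Cdh5 stood at 43.9 and 39.9 CPM against 194 and 239. Kdr stood at 126 and 136 CPM against 217 and 225, and Emcn, Egfl7 and Tie1 were lower as well. Cardiomyocyte markers summed to 5336 and 6328 CPM against 14879.6 and 15262. Macrophage markers summed to 305 and 313 CPM against 1346 and 1442 and mural markers to 539.9 and 444 against 979.9 and 1004. Glial markers stood at 16.1 and 12.1 CPM, with Sox10 at 0 in the PD-1 inhibitor library. T cell markers stood at 29.3 and 19.3 CPM.

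The nuclei made a larger share of the PD-1 inhibitor library. They were 13.9% of the Control nuclei (13.2 to 14.6) and 18.0% of the PD-1 inhibitor nuclei (17.1 to 18.8), a ratio of 1.29 (1.20 to 1.39). Among fibroblast nuclei alone they were 41.3% (39.7 to 43.0) and 48.2% (46.4 to 50.04), a ratio of 1.17 (1.08 to 1.26). The Rgs17 set nuclei made 33.6% and 25.2% of the fibroblast nuclei, a ratio of 0.749 (0.682 to 0.822). Without the nuclei rich in mesothelial markers the shares of all nuclei were 13.4% and 17.3%.

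The Cilp set and the Rgs17 set that decide this share differ in gene length. The genes of the Cilp set span a median of 11.7 kb (2.61 to 48.0) and those of the Rgs17 set a median of 177 kb (4.42 to 877). Over all fibroblast nuclei, whichever set was larger, the Cilp set summed to 2616 CPM (Control) and 2830 CPM (PD-1 inhibitor), and the Rgs17 set to 1985 and 1389 CPM. Pcdh9, the longest gene of the set, contributed most to this difference, with 5871 and 3461 UMIs, a log2 ratio of -0.70 (-0.76 to -0.64). Across all genes measured in the chosen nuclei, the median log2 ratio of PD-1 inhibitor over Control went from 0.17 for the shortest of 5 length bins to -0.16 for the longest. The part of gene length in the share was not tested.

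Against all other nuclei, of 10310 genes measured (at least 50 UMIs in the chosen nuclei of both libraries together, rule genes left out), 573 were over 2-fold higher in both libraries, 5.56%. Since the rule picked the nuclei by fibroblast genes, these values describe the nuclei and test nothing. Gsn, the actin-severing protein gelsolin, also secreted into plasma, was the most abundant of the leading genes, at 17534 CPM in the Control nuclei and 17994 CPM in the PD-1 inhibitor nuclei, against 2326 and 2343 CPM elsewhere. Its log2 ratios were 2.91 (2.89 to 2.94) and 2.94 (2.92 to 2.97), and 1297 and 1310 of the nuclei had a Gsn UMI.

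Among the 25 leading genes, Has2, a synthase of hyaluronan, the large polysaccharide of loose matrix, had 104 and 100 UMIs, at 52.5 and 44.9 CPM against 5.73 and 4.30 CPM elsewhere, which are log2 ratios of 3.19 (2.73 to 3.67) and 3.37 (2.83 to 3.97). Tnfaip6, which encodes a hyaluronan-binding protein, had log2 ratios of 2.88 and 2.94. Vcan, the hyaluronan-binding proteoglycan versican, stood at 538 and 469 CPM against 90.2 and 75.8 CPM, with log2 ratios of 2.58 and 2.63. Gfpt2, an enzyme of the hexosamine pathway, had 2.66 and 2.52.

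Among the other leading genes, Fbln2, the elastic fibre protein fibulin 2, stood at 1106 and 1195 CPM against 158 and 185 CPM, giving 2.81 (2.72 to 2.90) and 2.69 (2.60 to 2.78) on the log2 scale. Loxl2, a lysyl oxidase that cross-links collagen and elastin, had 2.68 in both libraries. Pcolce2, an enhancer of procollagen processing, had 2.65 and 2.97, and Hmcn2, the matrix protein hemicentin 2, had 2.96 and 2.92. Mmp2, a gelatinase, stood at 627 and 649.9 CPM with 2.46 and 2.44. Serpinf1, the secreted anti-angiogenic factor PEDF, had 2.96 and 2.72, and C7, a terminal complement component, had 2.72 and 3.13, although 66 of its 237 PD-1 inhibitor UMIs lay in 1 nucleus.

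Of the remaining leading genes, Scara5, a ferritin receptor, stood at 388 and 358 CPM with log2 ratios of 2.57 and 3.07, Ret, a receptor tyrosine kinase for GDNF family ligands, had 2.56 and 2.90, and Adgrg2, an adhesion receptor, had 2.65 and 2.87. Lrrn4cl, Efhd1, Srpx, Htra4, Fibin, Tsku, Gask1a, Mrgprf and A230001M10Rik completed the leading 25 genes, with log2 ratios from 2.51 to 3.80.

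Ren1, the renin gene, had the largest ratio, and it came from few nuclei. It had 105 UMIs in 10 Control nuclei and 14 UMIs in 1 PD-1 inhibitor nucleus, against 9 and 4 UMIs in all other nuclei. Of these, 99 of 105 and all 14 lay in nuclei with 3 or more mesothelial UMIs. Without the nuclei rich in mesothelial markers, 6 and 0 Ren1 UMIs were left, while the log2 ratios of Gsn were then 3.06 and 3.14 and those of Has2 3.31 and 3.57.

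In the universal fibroblast list, 19 of 26 measured genes were over 2-fold higher than in all other nuclei in both libraries, in the elastic fibre list 15 of 20, in the proteoglycan list 13 of 18 and in the list of matrix proteases and inhibitors 19 of 32, beside the 5.56% of all genes. Of the nuclear-encoded respiratory chain genes, 0 of 78 were, and of the ribosomal protein genes 0 of 75.

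The comparison with fibroblast nuclei in which the Rgs17 set was larger asks what else separates the kinds of fibroblast. Of 9367 genes measured (in each library at least 50 UMIs in both kinds of nuclei together), 489 were over 1.5-fold higher in both libraries (5.22%) and 334 over 1.5-fold lower (3.57%). The rule used this contrast, so the counts are given as a description. The median log2 ratio over all genes was -0.02 (Control) and -0.04 (PD-1 inhibitor). It varied with gene length, from 0.28 in both libraries for the shortest of 5 length bins to -0.23 and -0.30 for the longest.

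In the universal fibroblast list, 16 of 25 measured genes were higher than in Rgs17 set nuclei and 0 lower, beside 5.22% and 3.57% of all genes. The list had median log2 ratios of 1.03 and 1.11. Sema3c, a secreted guidance factor, stood at 299 and 416 CPM with log2 ratios of 1.60 and 1.34, Igfbp6, a binding protein of insulin-like growth factors, had 1.63 and 1.24, and Cd34, a sialomucin of stem and stromal cells, had 1.14 and 1.19. Ly6a, the surface protein Sca-1, was higher in both libraries as well, at 456 CPM against 162 (Control) and 492 against 143 (PD-1 inhibitor). Its log2 ratios were 1.49 (1.28 to 1.70) and 1.78 (1.54 to 2.04).

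Among the 15 highest genes against Rgs17 set nuclei, Nbl1, a secreted antagonist of bone morphogenetic proteins, had 338 and 345 UMIs in the chosen nuclei and 71 and 43 in Rgs17 set nuclei, giving 1.87 (1.5 to 2.27) and 1.93 (1.48 to 2.44) on the log2 scale. Tmem100, a small membrane protein downstream of ALK1 signalling, had 139 and 217 UMIs against 15 and 19, with 2.79 (2.07 to 3.71) and 2.42 (1.78 to 3.21). Ccn3, a matricellular protein, had 48 and 61 UMIs against 12 and 4, with 1.58 and 2.71. Dio2, the deiodinase that activates thyroid hormone, had 99 and 34 UMIs against 14 and 4, with 2.40 and 1.88. Has2 stood 1.66 and 2.5 above the Rgs17 set nuclei, Lrrn4cl 1.81 and 2.58, Efhd1 1.54 and 1.77 and Prrt4 1.69 and 2.42, all on the log2 scale.

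Another group of these leaders lay in the nuclei with mesothelial transcripts. Dmkn had 56 and 39 UMIs, of which 49 and 37 were in nuclei with 3 or more mesothelial UMIs. For Tspan8 these were 47 of 49 and 79 of 85 UMIs, and for Slurp1 28 of 34 and 63 of 74. Inka2 had 52 and 64 UMIs, of which 22 and 25 were left without those nuclei, with log2 ratios of 0.59 and 0.63 in place of 1.58 and 1.56. Ren1, with 0 UMIs in Rgs17 set nuclei of either library, was at least 27-fold and 2.24-fold higher against a floor of 3 UMIs, and it too lay in the mesothelial nuclei. Tmem100 stayed at 3.07 and 2.59, Nbl1 at 2.32 and 2.37 and Ly6a at 1.68 and 2.01 without them. In all, 439 of 8740 measured genes were then higher and 305 lower, beside 489 and 334 of 9367 with them.

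The 15 lowest genes against Rgs17 set nuclei were led by Nkain2, a membrane protein that interacts with the sodium pump. It had 151 and 163 UMIs against 608 and 381, giving -2.38 (-2.65 to -2.13) and -2.28 (-2.56 to -2.02) on the log2 scale. Sgcd, the sarcoglycan delta of the dystrophin complex, had the most UMIs among them, 975 and 881 against 2092 and 1204, with -1.48 (-1.59 to -1.37) and -1.51 (-1.64 to -1.38). Igfbp3, a binding protein of insulin-like growth factors, stood at 44.9 and 61.9 CPM against 141 and 218 CPM, with -1.65 and -1.81. Dchs2, a protocadherin, had -2.58 and -1.96, Kirrel3, an adhesion protein of neurons, -1.72 and -3.12, and Grik2, a glutamate receptor subunit, -1.25 and -1.33.

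The chemokine gene Cxcl1 had 53 and 21 UMIs against 101 and 30 in Rgs17 set nuclei, giving -1.30 (-1.81 to -0.81) and -1.56 (-2.45 to -0.72) on the log2 scale. Rgs7, Aox3, Alkal2, Vwc2, Blnk, Pcbp3, Prr16 and Pappa were lower by log2 ratios between -1.83 and -1.20. In the WNT list, 3 of 21 measured genes were higher and 1 lower, and in the list of growth factors and receptors 2 of 33 were higher and 6 lower, beside 5.22% and 3.57% of all genes, so the share of growth factor genes that were higher was near the background.

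**Figure D3:**
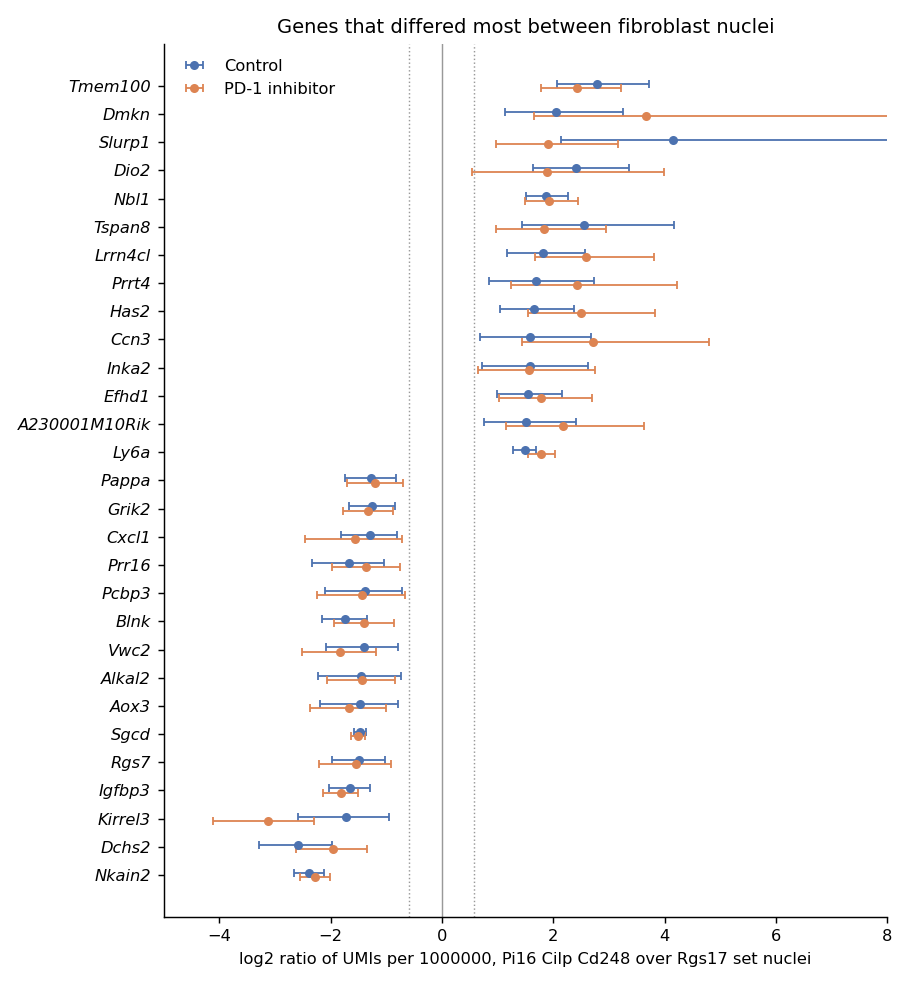
Log2 ratio of UMIs per 1000000 in Pi16 Cilp Cd248 nuclei over Rgs17 set nuclei for the genes that differed most in both libraries. Points are the 2 libraries, bars exact 95% intervals (2 of them run past the axis at the right), and dotted lines mark 1.5-fold; Nkain2 stands at -2.38 and -2.28 and Tmem100 at 2.79 and 2.42. Ren1, at 0 in Rgs17 set nuclei, is left out.

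Of the elastic fibre genes 9 of 20 were higher than in Rgs17 set nuclei and 0 lower, and of the proteoglycan genes 8 of 17 and 0. Of all genes, 5.22% were higher and 3.57% lower. Fbln2 had log2 ratios of 1.45 and 1.67, Ltbp4, which binds latent TGF-beta, had 1.08 and 0.91, and Fbn1, the microfibril protein fibrillin 1, had 0.66 and 0.67. Eln, elastin itself, did not pass the fold, at 1130.3 and 1003 CPM with -0.28 and -0.44. Among fibrillar collagen genes outside the rule, 0 of 4 passed in either direction, with Col5a2 at 0.06 and -0.17 and Col5a3 at -0.20 and -0.10. Lama2, the laminin chain around muscle fibres, stood at 1635 and 1209.6 CPM with -0.59 and -0.62.

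Cytoplasmic transcripts differed along the same contrast. Of the mitochondrially encoded genes 7 of 8 were higher than in Rgs17 set nuclei, with mt-Cytb at 1.16 and 0.86, and mitochondrial genes held 2.09% and 2.04% of the UMIs of the chosen nuclei against 0.967% and 1.17% in Rgs17 set nuclei. Ribosomal protein genes were higher in 20 of 65 cases and 0 were lower. Of all genes, 5.22% were higher and 3.57% lower. The ribosomal protein genes span a median of 3.70 kb, and the shortest length bin had a median log2 ratio of 0.28 in both libraries. Malat1, a nuclear RNA, held 4.78% and 4.44% of the UMIs against 6.15% and 6.21%. With totals taken without mitochondrial and ribosomal protein genes, 523 of 9367 genes were higher than in Rgs17 set nuclei and 296 lower. With at most 5% mitochondrial UMIs, 468 of 9187 were higher and 281 lower. Beyond these settings, the part of cytoplasmic transcripts in the counts was not tested.

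The chosen nuclei were also compared among themselves. A UMI of Cilp or Myoc without any of Pi16, Cd248, Clec3b and Mfap5 was found in 36 and 26 nuclei (62031 and 42219 UMIs), and the reverse in 1029 and 1063 nuclei (1437376 and 1652659 UMIs). Both kinds of gene were found together in 272 and 255 nuclei. Of 6476 genes measured (at least 50 UMIs in each library), 102 were over 2-fold higher on the Cilp and Myoc side in both libraries (1.58%) and 243 over 2-fold lower (3.75%), again in a contrast that the rule genes chose. These counts rest on the 0.5 UMI added to each sum: 164 of the 243 had 0 UMIs on that side in at least 1 library, and with sums under 3 UMIs set to 3, 64 were higher and 40 lower.

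The leading genes on the Cilp and Myoc side had few UMIs. Erbb4, the neuregulin receptor, had 39 and 10 UMIs there and 166 and 122 on the other side, with log2 ratios of 2.46 and 1.75, and Cdh13, T-cadherin, had 18 and 12 against 109 and 124, with 1.97 in both. AU021092, Lamtor4, Ank3, Slc2a13 and Cadm2 had 5 to 15 UMIs each on that side.

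Ccl2, the monocyte chemokine, was not found on the Cilp and Myoc side and had 210 and 188 UMIs on the other, which is at least 3.02-fold and 1.60-fold higher against a floor of 3 UMIs per library. Adamtsl3, a secreted matrix protein, had 1 UMI in each library against 311 and 389. Angptl2, an angiopoietin-like factor, had 0 and 1 UMIs against 298 and 405. Dbn1 and Arhgap17 were at 0 UMIs on the Cilp and Myoc side too, and at least 1.47-fold and 1.24-fold, and 1.99-fold and 1.10-fold, higher on the other. Pafah1b2, Fbh1 and Maged2 were at 0 as well, with levels on the other side under the floor in the PD-1 inhibitor library, so no fold is given for it.

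Between the libraries, the leading differences of the chosen nuclei included immediate early genes, the genes that cells switch on within minutes of a stimulus and whose transcripts are short-lived. Of 10335 genes measured (at least 50 UMIs in both libraries together), 642 were over 1.5-fold higher in the PD-1 inhibitor library (6.21%) and 490 over 1.5-fold lower (4.74%), with a median log2 ratio of 0.00. After thinning to 500 UMIs, 6419 genes were measured, of which 379 were higher and 441 lower. When each gene lost the nucleus with most of its UMIs, in 1 library at a time, 420 and 303 genes kept the fold. In the immediate early list, 0 of 28 measured genes were higher and 9 lower, with a median of -0.27, and all 9 kept the fold without that nucleus.

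Fos, a subunit of the AP-1 transcription factor, had the lowest ratio of all named genes, with 358 UMIs in 128 Control nuclei and 30 UMIs in 25 PD-1 inhibitor nuclei. Its log2 ratio was -3.73 (-4.34 to -3.21). Egr1, a zinc finger transcription factor, had 491 and 148 UMIs (log2 ratio of -1.90 (-2.18 to -1.63)). Ccn1, a matricellular protein, had 462 and 141 UMIs with -1.88 (-2.16 to -1.61). Nr4a1, an orphan nuclear receptor, had 519 and 182 UMIs with -1.68 (-1.93 to -1.44), and Junb, another AP-1 subunit, had 468 and 187 with -1.49 (-1.75 to -1.25). Ier2, Egr3, Zfp36, which encodes an RNA-decay factor, and Dusp1, a phosphatase of MAP kinases, had -1.14, -1.14, -0.99 and -0.85.

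Not all genes of the list were lower. Jund, the AP-1 subunit with steadier expression, had 625 and 877 UMIs (log2 ratio 0.32 (0.17 to 0.47)). Klf2, a flow-responsive factor, had 835 and 934 UMIs with -0.01, and Klf4 had 734 and 744 with -0.15. Rgs17 set nuclei of the same libraries, which are other nuclei of the same preparations, had log2 ratios of -3.82 for Fos, -2.99 for Egr1, -2.03 for Ccn1, -2.51 for Nr4a1 and -1.93 for Junb. All other nuclei together had -3.27, -2.37, -1.85, -2.0 and -1.26.

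To show what the promoters of these genes hold, the 250 bases before the start site are given for 4 of the genes that were lower, 5′ to 3′ on the gene's strand, from RefSeq on GRCm38.p6. Capitals mark the letters TGACG of a half-site for cyclic AMP response element factors on either strand, the TATA box letters TATAAA, and the CArG box bound by serum response factor. They show Fos at chr12:85473640-85473889 (plus strand), Nr4a1 at chr15:101266596-101266845 (plus strand), Ccn1 at chr3:145649986-145650235 (minus strand) and Zfp36 at chr7:28379229-28379478 (minus strand).
Fos: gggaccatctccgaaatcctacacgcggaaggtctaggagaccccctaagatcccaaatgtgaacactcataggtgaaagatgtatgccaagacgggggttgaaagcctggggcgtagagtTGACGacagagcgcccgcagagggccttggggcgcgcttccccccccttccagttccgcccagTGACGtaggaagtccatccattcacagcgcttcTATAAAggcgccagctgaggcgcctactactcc
Nr4a1: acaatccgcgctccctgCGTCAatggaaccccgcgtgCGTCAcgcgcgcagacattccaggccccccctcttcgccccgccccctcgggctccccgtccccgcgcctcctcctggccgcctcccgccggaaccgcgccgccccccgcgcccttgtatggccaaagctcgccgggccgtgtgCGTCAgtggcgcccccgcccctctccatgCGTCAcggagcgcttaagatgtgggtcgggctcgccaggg
Ccn1: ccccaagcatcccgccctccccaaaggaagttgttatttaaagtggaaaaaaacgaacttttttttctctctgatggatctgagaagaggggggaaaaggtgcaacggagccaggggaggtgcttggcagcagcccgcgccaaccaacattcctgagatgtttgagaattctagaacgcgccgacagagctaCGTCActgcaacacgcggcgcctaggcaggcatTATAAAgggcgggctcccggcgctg
Zfp36: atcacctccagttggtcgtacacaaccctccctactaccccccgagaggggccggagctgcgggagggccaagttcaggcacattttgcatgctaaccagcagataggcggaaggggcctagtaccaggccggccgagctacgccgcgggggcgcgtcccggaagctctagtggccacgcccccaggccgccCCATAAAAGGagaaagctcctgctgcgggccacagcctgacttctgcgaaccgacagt

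Fos held 2 of the half-sites, the nearer one 66 to 62 bases before the start, and a TATA box. Nr4a1 held 4 half-sites and Ccn1 held 1 with a TATA box. In Zfp36 only a CArG box was found, 58 to 49 bases before the start. Over 32536 promoter windows of this length, 17.9% held the half-site, 12.3% the TATA letters, 1.48% a CArG box, and 6.73% the AP-1 letters TGANTCA, which none of these 4 windows held. A match describes the letters only, and sites further away were not looked at.

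**Figure D4:**
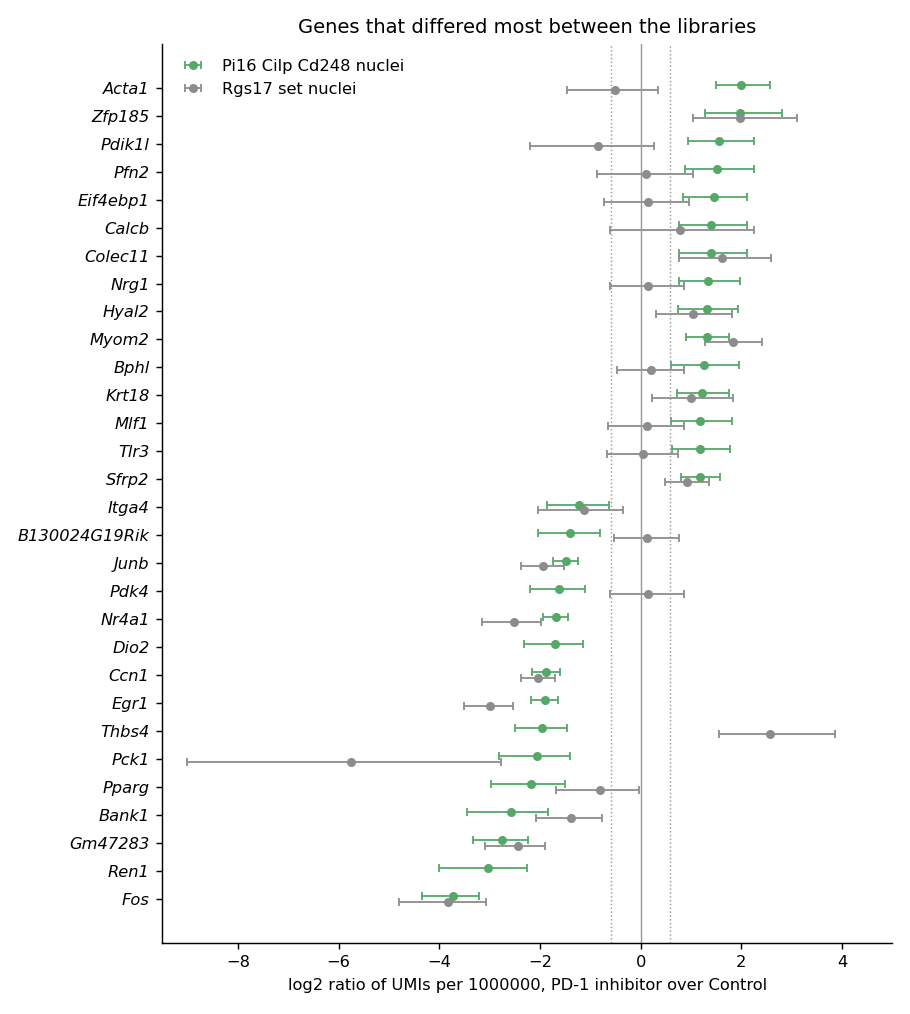
Log2 ratio of UMIs per 1000000 in the PD-1 inhibitor over the Control library for the 15 highest and 15 lowest genes of the Pi16 Cilp Cd248 nuclei (green), with the same ratio in Rgs17 set nuclei (grey). Bars are exact 95% intervals of counting error and dotted lines mark 1.5-fold; Fos stands at -3.73 and -3.82 and Sfrp2 at 1.17 and 0.92, and genes with too few UMIs in Rgs17 set nuclei have no grey point.

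Other lower genes included genes known from fat cells and B cells. Pparg, the adipocyte nuclear receptor, had 86 and 21 UMIs (log2 ratio of -2.18 (-2.97 to -1.5)), and 28 of the 86 lay in 1 nucleus. Pck1, an enzyme of glucose and glyceride synthesis, had 86 and 23 UMIs with -2.05, and Pdk4, a kinase that restrains glucose oxidation, 111 and 40 with -1.63. Adipocyte markers summed to 89.8 and 37.2 CPM in these nuclei, to 45.2 and 3.74 CPM in Rgs17 set nuclei and to 238.6 and 42.9 CPM in all other nuclei. Bank1, a B cell scaffold, had 92 and 17 UMIs with -2.57 (-3.45 to -1.85), and the B cell markers, to which it belongs, summed to 79.2 and 14.8 CPM, with Cd79a at 0 in the PD-1 inhibitor library. The B cell markers summed to 103.4 and 34.6 CPM in Rgs17 set nuclei and to 318 and 148.6 CPM in all other nuclei, so they were lower there too. The part of such transcripts from other cells was not tested.

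Several of the lower genes rested on 1 nucleus or a few. Thbs4, a thrombospondin, had 146 and 42 UMIs with -1.96, but 93 lay in 1 Control nucleus, and without it the log2 ratio was -0.50, under 1.5-fold. Acta2, smooth muscle actin, had 248 and 129 UMIs with -1.11 (-1.43 to -0.80), of which 77 lay in 1 Control nucleus, and without it the log2 ratio was -0.58, also under 1.5-fold. Ren1 had -3.03 from 10 nuclei and 1 nucleus. Dio2, Itga4, Gm47283 and B130024G19Rik, in contrast, kept the fold without the nucleus richest in them. Dio2 had 99 and 34 UMIs with -1.70 and Itga4, an integrin chain, 71 and 34 with -1.22. Gm47283, a gene on the Y chromosome, had 205 and 34 UMIs with -2.74 (-3.33 to -2.23) and B130024G19Rik 78 and 33 with -1.40. In Rgs17 set nuclei, Gm47283 had -2.44 and B130024G19Rik 0.12.

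Among the higher genes, secreted and membrane factors stood beside muscle transcripts. Sfrp2, a secreted WNT antagonist, had 79 UMIs in 51 Control nuclei and 201 UMIs in 99 PD-1 inhibitor nuclei, at 1.17 (0.79 to 1.57) on the log2 scale. Colec11, a collectin of the lectin complement pathway, had 26 and 78 UMIs with 1.40 (0.76 to 2.11). Hyal2, a hyaluronidase, had 34 and 96 UMIs with 1.31 (0.75 to 1.94). Nrg1, an ERBB ligand, had 33 and 95 UMIs with 1.34 (0.77 to 1.97), and Tlr3, the receptor for double-stranded RNA, 37 and 95 with 1.18 (0.63 to 1.78). Pfn2, Eif4ebp1, Pdik1l, Bphl and Mlf1 had 1.52, 1.45, 1.55, 1.25 and 1.18.

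Acta1, skeletal muscle actin, had the highest ratio, with 38 UMIs in 32 Control nuclei and 173 UMIs in 46 PD-1 inhibitor nuclei, 43 of them in 1 nucleus. Its log2 ratio was 2.00 (1.5 to 2.56), and it was -0.10 in nuclei with at most 5% mitochondrial UMIs. Myom2, a sarcomere protein, had 65 and 182 UMIs with 1.31 (0.90 to 1.75). Cardiomyocyte markers summed to 5336 and 6328 CPM in the nuclei, and their part in these values was not tested. Krt18 and Calcb lay in nuclei with mesothelial transcripts: of 45 and 118 Krt18 UMIs, 6 and 4 were left without these nuclei, and of 26 and 78 Calcb UMIs 1 and 1. Zfp185 had 19 and 86 UMIs with 1.98, and 6 and 15 UMIs with 1.19 without them.

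Col1a1 stood at 1306 CPM (Control) and 1215 CPM (PD-1 inhibitor), log2 ratio -0.10 (-0.18 to -0.03), and Col3a1 at 3412 and 3375 CPM with -0.02 (-0.06 to 0.03). Both belong to the rule, as does Col1a2, so these values are a description. Of the 4 measured fibrillar collagen genes outside the rule 0 passed 1.5-fold, with log2 ratios from -0.23 to -0.09 and a median of -0.20. Of 19 other collagen genes 0 were higher and 2 lower, beside 6.21% and 4.74% of all genes, with a median of -0.18. Col4a3, a basement membrane chain, had 434 and 320 UMIs with -0.61 (-0.82 to -0.40), and Col20a1 had 39 and 29 with -0.59 (-1.34 to 0.13). Neither kept the fold without the Control nucleus richest in it, with -0.57 for Col4a3 and -0.52 for Col20a1.

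Dcn, decorin, also a rule gene, stood at 8413 and 10813 CPM (log2 ratio 0.36 (0.33 to 0.39)). Lum, lumican, stood at 808 and 1119 CPM with 0.47 (0.38 to 0.56), and Ogn, osteoglycin, at 489 and 685 CPM with 0.49 (0.37 to 0.60). Spock2, a testican, was the one of 19 proteoglycan genes past 1.5-fold, with 165 and 323 UMIs and 0.80 (0.52 to 1.08). Among 23 elastic fibre genes, Fbln5 alone passed, and not without the nucleus richest in it (0.58), at 179 and 271 CPM with 0.60 (0.41 to 0.80). Of all genes, 6.21% were higher, so the shares of proteoglycan and elastic fibre genes that passed were near the background.

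**Figure D5:**
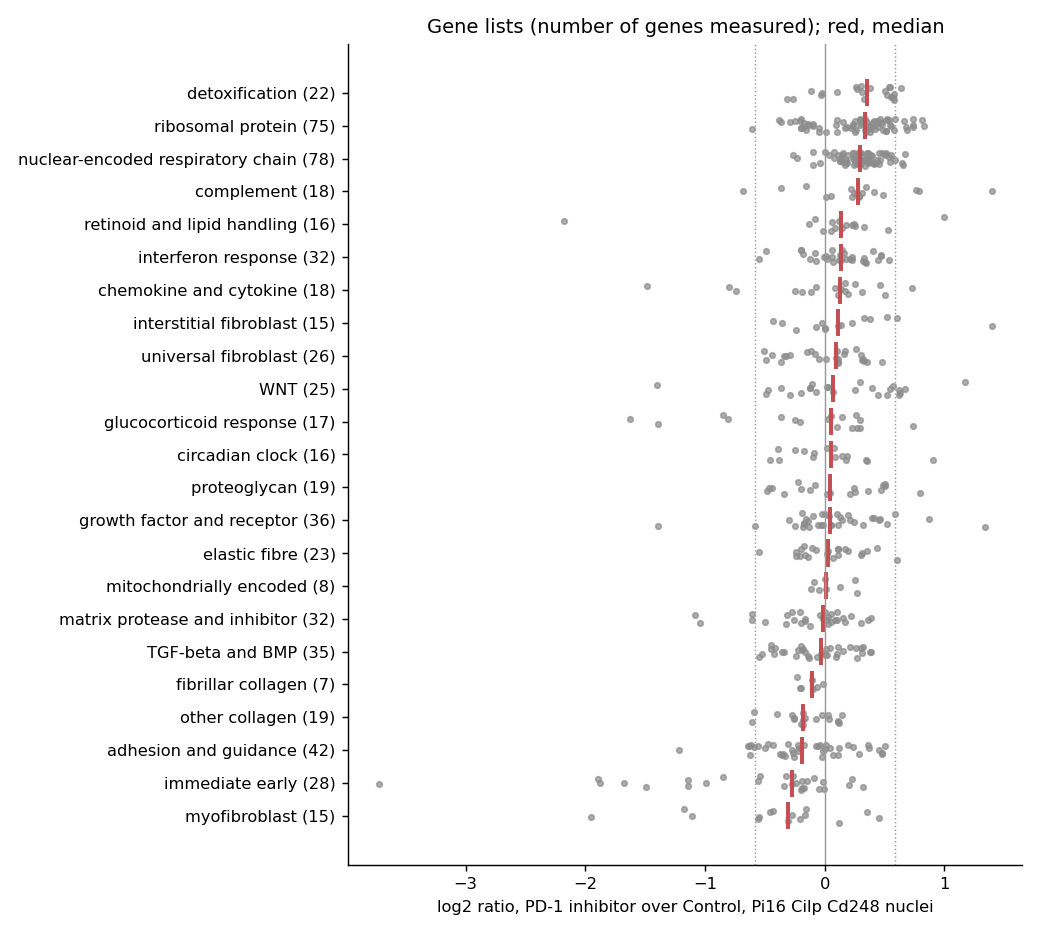
Log2 ratio of PD-1 inhibitor over Control for each measured gene of 23 lists in the Pi16 Cilp Cd248 nuclei (grey points), with the median of each list in red, the number of genes in brackets and dotted lines at 1.5-fold. Medians run from -0.30 (myofibroblast) to 0.36 (detoxification), beside a median of 0.00 over all 10335 genes.

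The myofibroblast list, of genes that fibroblasts turn on in scars, had 0 of 15 genes higher and 3 lower, beside 6.21% and 4.74% of all genes, with a median of -0.30. The 3 were Thbs4, Acta2 and Tagln, a smooth muscle actin-binding protein with 107 and 53 UMIs (log2 ratio of -1.18 (-1.69 to -0.70)). Without the 1 Control nucleus richest in each, Thbs4 and Acta2 no longer passed the fold and Tagln had -0.96. Postn, periostin, stood at 293 and 237 CPM with -0.30 (-0.48 to -0.13). Fn1, fibronectin, stood at 250.3 and 182 CPM with -0.46 (-0.65 to -0.27), and 56 of its 496 Control UMIs lay in 1 nucleus. Ccn2, a matricellular factor, stood at 581 and 479 CPM with -0.28 (-0.40 to -0.16). In Rgs17 set nuclei, the myofibroblast list had a median of -0.11. Mural markers, which include smooth muscle genes, summed to 539.9 and 444 CPM in the chosen nuclei, and their part was not tested.

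Of 35 genes of TGF-beta and BMP signalling, 0 passed 1.5-fold either way, with a median of -0.03. Of all genes, 6.21% were higher and 4.74% lower. The ligands Tgfb1 and Tgfb2 had log2 ratios of -0.13 (-0.47 to 0.20) and 0.00 (-0.22 to 0.23). The receptors Tgfbr1, Tgfbr2 and Tgfbr3 had -0.45 (-0.64 to -0.25), 0.10 (-0.08 to 0.27) and -0.02 (-0.16 to 0.12). Egfr had 719 and 656 UMIs with -0.30 (-0.46 to -0.15), and Tcf12, an E protein transcription factor, 748 and 729 with -0.21 (-0.36 to -0.06). Vim, vimentin, stood at 883 and 1089 CPM with 0.30 (0.21 to 0.39).

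The target of the antibody was not seen in these nuclei. Pdcd1, which encodes PD-1, had 0 UMIs in both libraries, that is in 0 of 1404 and 0 of 1428 nuclei. Taken as 3 divided by the number of nuclei, an approximation and not an exact interval, this allows up to 0.214% and 0.210% of nuclei with a UMI. Its ligand Cd274 had 48 and 50 UMIs, at -0.11 (-0.71 to 0.49) on the log2 scale, and Pdcd1lg2 had 1 UMI in each library. The endothelial genes Pecam1 and Cdh5, named by the study, had 127 and 171, and 87 and 89 UMIs, and Pecam1 is bounded by the rule.

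In the WNT list 5 of 25 genes were higher and 1 lower, and 3 and 1 kept the fold without the nucleus richest in the gene, beside 6.21% and 4.74% of all genes: Sfrp1, a further secreted antagonist, stood at 182 and 280.3 CPM with 0.62 (0.44 to 0.82), Fzd2, a receptor, had 106 and 190 UMIs with 0.67 (0.32 to 1.03), and the ligand Wnt4 had 43 and 18 with -1.40 (-2.31 to -0.60). Of 36 growth factor genes 3 were higher and 1 lower, shares near that background, with Ptn, pleiotrophin, at 0.87 (0.33 to 1.46) and Angptl4, an inhibitor of lipoprotein lipase, at -1.39 (-2.36 to -0.54). Of 18 chemokine and cytokine genes, Cxcl14 was higher, at 117 and 194 CPM with 0.73 (0.50 to 0.97), and 3 were lower: Cxcl1 at -1.49 (-2.31 to -0.75), the prostaglandin enzyme Ptgs2 at -0.80 (-1.37 to -0.26) and the monocyte chemokine Ccl7 at -0.75 (-1.08 to -0.41). Ptgs2 had -0.54 without the Control nucleus richest in it.

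Complement genes had a median log2 ratio of 0.28 in the chosen nuclei and of 0.30 in Rgs17 set nuclei. Of 18 measured in the chosen nuclei, 3 were higher and 1 lower, beside 6.21% and 4.74% of all genes. C4b stood at 141 and 244 CPM with 0.79 (0.58 to 1.00), Cd59a, an inhibitor of the membrane attack complex, had 48 and 92 UMIs with 0.76 (0.25 to 1.30), and Cd46, a complement regulator, had 130 and 91 with -0.68 (-1.09 to -0.29). C3, the central component, stood at 1956 and 2274 CPM with 0.22 (0.16 to 0.28). Detoxification genes had a median of 0.36 (0.28 in Rgs17 set nuclei) with 1 of 22 higher, a share near that of all genes, and 0 lower. The 1 was Ephx2, an epoxide hydrolase, with 46 and 81 UMIs and 0.64 (0.11 to 1.20). Ephx2 did not keep the fold without the nucleus richest in it (0.53). Of 32 interferon response genes 0 passed the fold, and B2m, the light chain of class I molecules, stood at 1589 and 1986 CPM with 0.32 (0.26 to 0.39).

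Genes of protein synthesis and respiration, which are short, had positive medians. Ribosomal protein genes had a median of 0.33, with 9 of 75 higher and 1 lower (6 and 0 without the nucleus richest in the gene), and Rps25 was the highest, with 98 and 196 UMIs and 0.83 (0.47 to 1.19). Nuclear-encoded respiratory chain genes had a median of 0.29, with 4 of 78 higher and 0 lower (1 and 0 without that nucleus), and the mitochondrially encoded genes one of 0.01. Of all genes, 6.21% were higher and 4.74% lower, so the share of respiratory chain genes that were higher was near the background. The median spans of these lists were 3.70, 7.25 and 1.09 kb, and the shortest length bin of all genes had a median of 0.17.

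Adhesion and guidance genes had a median log2 ratio of -0.19, with 0 of 42 higher and 6 lower, and a median span of 147 kb. Of all genes, 6.21% were higher and 4.74% lower. Lama2 stood at 1635 and 1209.6 CPM with -0.43 (-0.51 to -0.36), Itga8, an integrin chain, had 155 and 113 UMIs with -0.62 (-0.99 to -0.27) and -0.41 without 1 Control nucleus, and Lamb1, a laminin chain, had 0.36 (0.25 to 0.47). Without the nucleus richest in each gene, 1 of the 6 lower genes kept the fold. The longest bin of all genes had a median of -0.16, with 63 of 2066 genes higher and 160 lower. In Rgs17 set nuclei, the median of the adhesion and guidance list was -0.04.

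Among matrix proteases and inhibitors 0 of 32 were higher and 4 lower, beside 6.21% and 4.74% of all genes. Adamts9, a versicanase, had 138 and 75 UMIs with -1.05 (-1.48 to -0.63). P4ha1, a prolyl hydroxylase of collagen, and Adamts12 both had -0.61, and Adamts12 had -0.58 without the Control nucleus richest in it, under the fold. Of 16 clock genes, Hlf alone passed, with 50 and 106 UMIs and 0.91 (0.42 to 1.43), while Arntl had -0.17 (-0.41 to 0.07). Of 17 glucocorticoid response genes 1 was higher and 4 lower, among them Pdk4, Angptl4 and Dusp1 named above and Mt2, a metallothionein, with 64 and 41 UMIs and -0.81 (-1.41 to -0.22). Of 16 genes of retinoid and lipid handling, Adh1, an alcohol dehydrogenase, was higher, with 35 and 79 UMIs and 0.99 (0.41 to 1.62), and Pparg lower. For the clock, glucocorticoid response and retinoid lists, the shares that were higher were near that of all genes. The share of retinoid and lipid genes that were lower was near it too.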

How the data were processed

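Nuclei of mouse hearts were counted in 1 Control and 1 PD-1 inhibitor library. The authors deposited raw UMI counts per gene and nucleus, not normalized. The submitters' processing notes name GRCm38 and mm10, and the aligner and its settings were not given in the sources used here. Gene spans and coordinates were taken from GENCODE vM21.

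A limit of 20% mitochondrial UMIs removed 83 Control and 15 PD-1 inhibitor nuclei. UMIs were summed over the nuclei of each kind and library and divided by the summed total, as CPM. For log2 ratios 0.5 UMI was added to each sum, and genes under 50 UMIs were left out. Called means past the stated fold, since 1 library per group allows no test. Intervals are exact at 95% (Poisson for levels, Clopper-Pearson for shares, conditional binomial for ratios) and cover counting error only. Medians of 1154 and 1228 UMIs per nucleus limit the precision for a gene in 1 nucleus, so sums over nuclei were compared. Scrublet in Scanpy marked likely doublets, which were kept.

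The genes named are those of the rule, the 25 highest against all other nuclei, the 15 highest and 15 lowest against Rgs17 set nuclei and between libraries (at least 100 UMIs), the 8 highest and 8 lowest between the Cilp and Myoc side and the other, in each of 23 lists up to 4 with the largest ratio and up to 4 with the most UMIs, and genes the study names. A few genes that this rule names are not reported here. Other genes past the fold in a list, among them Ier2, Egr3, Zfp36 and Junb, were named after their values were seen, as were Itga7 and the opposite genes in the closing section. The members, lists and rule were chosen with earlier results of these data known. Alternatives were other thresholds of the rule, thinning to 500 UMIs, other totals and centring, a mean over nuclei, a minimum of 200 UMIs, a larger fold, leaving out doublets, a floor of 3 UMIs, and leaving out the nucleus richest in a gene. The scripts were tested on simulated data. Python 3.11.15, NumPy 2.4.6, pandas 2.3.3, SciPy 1.17.1, Scanpy 1.11.5 and Matplotlib 3.10.9 were used.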

Additional observations from a re-analysis of the deposited data

Results flagged for a closer look

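Among genes with at least 100 UMIs in the Pi16 Cilp Cd248 nuclei and 50 in the Rgs17 set nuclei, 8 were past 1.5-fold in opposite directions between the libraries in the 2 kinds of nuclei, with both intervals clear of equality. How many genes met both UMI limits is not given here. Without the limit of 100 UMIs and the condition on intervals, 391 of the higher genes were measured in Rgs17 set nuclei. Of these, 124 (31.7%) were past the fold higher there too and 11 lower. For the lower genes, 86 of 348 (24.7%) were past the fold lower there too and 12 higher. Of all 8825 genes, 6.16% were lower and 9.17% higher in Rgs17 set nuclei. The difference between the 2 kinds of nuclei was not tested. Without the 1 nucleus richest in the gene, in either kind of nuclei and either library, 2 of the 8 kept both directions past the fold: Mfsd8, a lysosomal membrane protein, with log2 ratios of 0.73 in the chosen nuclei and -0.97 in Rgs17 set nuclei, and Zfp12, a zinc finger protein, with 0.69 and -0.92. The others did not. Cilp, a gene of the rule, had -0.67 and 0.99, but 26 of its 42 PD-1 inhibitor UMIs in Rgs17 set nuclei lay in 1 nucleus, and without it that ratio was -0.36; without the Control nucleus with 74 of 737 UMIs the ratio in the chosen nuclei was -0.52. Nup50, a nuclear pore protein, had -0.70 and 0.92, of which 32 of 53 UMIs lay in 1 nucleus, with -0.40 without it. Tagln, a smooth muscle actin-binding protein, had -1.18 and 1.23 (0.34 without 1 nucleus), and Gm17428 had -0.62 and 1.04 (0.13 without 1 nucleus). Unc5c, a netrin receptor, had -0.64 and 0.67 (0.49 without 1 nucleus), and Itga7, a laminin-binding integrin chain, had -0.59 and 0.70 (0.52 without 1 nucleus).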

How the results depend on the processing

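No paired analysis was possible because each group is 1 library. The ratio of shares of all nuclei stayed between 1.29 and 1.31. The shares themselves were 12.9% and 16.6% with at least 6 fibroblast UMIs, 10.4% and 13.7% with a margin of at least 2, and 10.4% and 13.5% when nuclei were thinned to 500 UMIs first. The stricter settings below keep fewer genes or UMIs by construction. With a minimum of 200 UMIs, 376 genes were higher than in other nuclei, 241 higher and 143 lower than in Rgs17 set nuclei, 126 higher and 120 lower between libraries, 8 higher and 42 lower on the Cilp and Myoc side, and 16 higher and 17 lower over all lists (32 and 34 before). With a larger fold (3 against other nuclei and between the sides, otherwise 2) these were 221, 80 and 54, 110 and 74, 8 and 95, and 3 and 18. Thinning the chosen nuclei left 238 and 155 of 5057 genes against Rgs17 set nuclei, and 62 and 74 of 2227 between the sides. Between libraries it left 379 higher and 441 lower of 6419. Between the sides, 167 were higher with a margin of at least 2, 185 when thinned first, and 164 higher and 393 lower as a mean over nuclei; the cause was not tested. Acta1 changed direction between libraries, to -0.10 with at most 5% mitochondrial UMIs. With sums under 3 UMIs set to 3, 64 genes were higher and 40 lower between the sides. Without the nucleus richest in each gene, 420 were higher and 303 lower between libraries, and 21 were higher over all lists. These 2 settings, leaving out nuclei with mesothelial markers and centring within 5 bins of gene length were chosen after seeing the data. Centred by length, 534 genes were higher and 488 lower between libraries. Over all pairs of a named gene or list with a setting, 1317 stayed within their intervals, 72 moved and 1 turned. These pairs include the larger fold, which changes the cutoff and not the value. The most moves were among the leading genes against other nuclei. When nuclei were thinned to 500 UMIs before selection, 11 of these moved and 13 stayed. Without nuclei with mesothelial markers, 9 moved and 15 stayed. With 1 library per group, depth limits counting error only, and spread between hearts is unknown.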
